A study of Ovis aries with 32 samples.

Results

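Selenoprotein P (SELENOP), its neighbour CCDC152 and 8 further selenoprotein genes (GPX1, GPX3, GPX4, SELENOF, SELENOK, SELENOS, SELENOT and SELENOW) were followed across 4 tissues and 2 diets. They were taken by gene name from a table of 30722 gene rows, 17372 of them named, and 9 of the 10 were found. SELENOS is not analysed here. SELENOP and CCDC152 were chosen by their measured TPM, which moved in opposite directions between libraries, so all of their values below are a description and carry no test. The other 7 passed the filter on low values in every comparison and were tested.

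The libraries came from male Tan sheep, aged 3 months when the trial began. Control sheep (CON) ate a basal pelleted diet, and the SA sheep ate that diet with succinic acid added at 1% of dry matter, both for 60 days after 10 days of adaptation. Of 24 sheep in the trial, 4 per diet were sequenced from liver, tail fat and tissues labelled hypothalamus and pituitary, which gave 32 libraries, 4 in each of 8 groups. The libraries were made from poly(A)-selected RNA with a kit that keeps strand, and the deposited values are TPM (a transcript's share of all transcripts, scaled to a fixed sum), a level per unit of transcript length that can be compared between genes within a library. TPM keep no read depth, so no counting interval can be given for any level. Whether a replicate number marks the same sheep in different tissues is not given in the sources used here.

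Selenoproteins carry selenocysteine, an amino acid that is inserted at a UGA codon with the help of a hairpin in the messenger RNA and a set of dedicated factors. SELENOP is the main selenium carrier of blood plasma. It is made chiefly in liver, holds several selenocysteines and is taken up by receptors of the low-density lipoprotein receptor family, in brain and testis among other organs. The glutathione peroxidases reduce hydroperoxides (GPX1 in the cytosol, GPX3 in plasma, GPX4 on phospholipids in membranes), SELENOF, SELENOK and SELENOT are proteins of the endoplasmic reticulum, and SELENOW is a small redox protein of muscle and brain. CCDC152 codes for a coiled-coil protein, is not a selenoprotein gene, and lies next to SELENOP in the genes that RefSeq annotates on ARS-UI_Ramb_v3.0.

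Some libraries differed in ways that touch every value below. The summed share of mitochondrially encoded transcripts was 20.2 to 27.9% of TPM with the CON diet in liver and 52.5 to 71.0% with the SA diet, so that nuclear transcripts filled a smaller part of each liver SA library. In tail fat that share was 22.6% in CON 2 and 25.7% in SA 1 against 36.5 to 70.8% in the other 6 libraries, and in pituitary SA 4 it was 68.8% against 36.7 to 51.1% in the other 7 pituitary-labelled libraries. Of the markers of labelled tissue, 6 hepatocyte genes summed to 84984 to 95496 TPM in control liver and to 6092 to 22075 in the SA livers, and 5 adipocyte genes summed to 10709 to 74286 in tail fat. The pituitary-labelled libraries held neuron markers (436 to 1881 TPM summed over 3 genes) and almost no anterior pituitary hormone transcripts (5 of 6 found, 2.85 to 5.90 TPM summed, CGA and FSHB at 0), and the hypothalamus-labelled libraries had 1.69 to 6.43 TPM summed over 3 of 4 hypothalamic neuropeptide genes. Both are therefore named by their labels.

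SELENOP (ENSOARG00020031741) was among the most abundant transcripts of control liver, at 5758, 4976, 4686 and 4282 TPM in CON 1 to CON 4, which placed it between rank 21 and rank 30 of all rows. In the 4 liver SA libraries it stood at 689, 241, 297 and 773 TPM, between rank 109 and rank 211. The diets did not overlap, and the CON mean of 4926 ± 624 TPM (SD, n = 4) was 9.86 times the SA mean of 500 ± 270 (SD, n = 4). With mitochondrial and ribosomal RNA rows taken out and each library rescaled, the mean log2 difference of −3.47 became −2.39. In these bulk samples, fewer cells of a type and less RNA per cell cannot be told apart.

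CCDC152 (ENSOARG00020006118) showed the reverse. Each of the 4 liver CON libraries lists it at 0, and it stood at 448, 168, 645 and 842 TPM in liver SA 1 to SA 4. Of the summed TPM of the pair, CCDC152 took 39.4, 41.1, 68.5 and 52.1% in these 4 libraries. The summed level of the pair was still lower in liver SA, at 408 to 1615 TPM, than the lowest liver CON level of 4282.

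**Figure D1:**
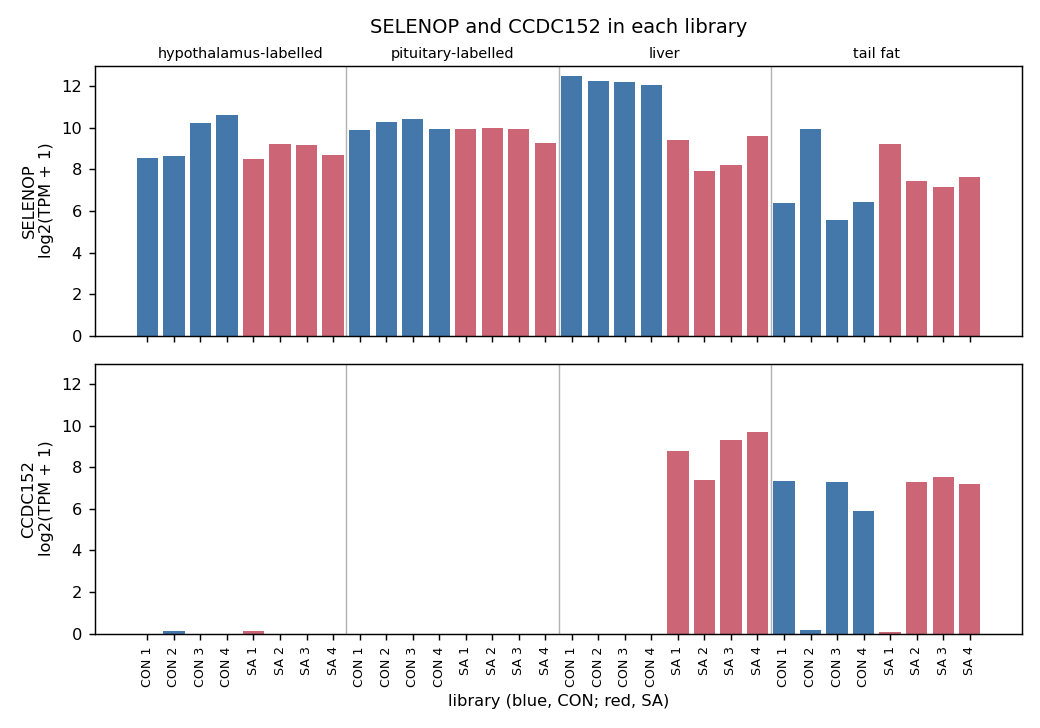
Bars give log2(TPM + 1) of SELENOP (top) and CCDC152 (bottom) in each of the 32 libraries, blue for CON and red for SA. CCDC152 stands above 57 TPM in the 4 liver SA libraries and in 6 of 8 tail fat libraries, and not in tail fat CON 2 and SA 1, where SELENOP is highest for that tissue.

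Tail fat split within the diets, not between them. SELENOP was at 84.1, 972, 46.0 and 84.3 TPM in CON 1 to CON 4 and at 598, 174, 141 and 197 TPM in SA 1 to SA 4. CCDC152 was at 162, 0.12, 156 and 57.8 TPM in the CON libraries and at 0.07, 156, 186 and 148 TPM in the SA libraries. CON 2 and SA 1 therefore had the highest SELENOP and almost no CCDC152, while in the other 6 libraries CCDC152 made up 40.7 to 77.3% of the pair. The diet means overlapped widely, at 297 ± 451 TPM for SELENOP in CON and 277 ± 215 in SA (SD, n = 4 each).

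CON 2 and SA 1 also stood apart in other measures of tail fat. Endothelial markers (PECAM1, VWF and CDH5) summed to 267 and 207 TPM there and to 24.6 to 135 TPM in the other 6 libraries, and leukocyte markers (PTPRC, CD68 and CSF1R) to 13.0 and 33.5 against 2.47 to 9.18 TPM. Adipocyte markers summed to 74286 and 44630 TPM against 10709 to 60057 TPM. Of these markers ADIPOQ (9604 and 5419 TPM against 1071 to 3295) and PLIN1 (751 and 688 against 114 to 492) were highest in CON 2 and SA 1, and FABP4, CIDEC and LPL were not highest in both. Hepatocyte markers were at 29.9 and 35.3 TPM, and the highest sum, 671 TPM, was in CON 4, where SELENOP was 84.3 TPM. The part of the mitochondrial share and of these marker differences in the SELENOP and CCDC152 levels was not tested.

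Brain-labelled libraries held SELENOP without CCDC152. In hypothalamus-labelled tissue SELENOP was at 377, 398, 1197 and 1573 TPM in CON and at 368, 601, 587 and 408 TPM in SA. In pituitary-labelled tissue it was at 957, 1260, 1400 and 991 TPM in CON and at 994, 1005, 998 and 619 TPM in SA. CCDC152 was 0 in all 8 pituitary-labelled libraries and did not exceed 0.08 TPM in the 8 hypothalamus-labelled ones. The order of mean SELENOP level in control sheep was liver (4926 ± 624 TPM), pituitary-labelled (1152 ± 214), hypothalamus-labelled (886 ± 596) and tail fat (297 ± 451, SD, n = 4 each), and only liver did not overlap its neighbour in this order.

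Within hypothalamus-labelled tissue 2 of the 8 libraries, CON 3 and CON 4, held over 1000 TPM of SELENOP, and the other 6 held 368 to 601 TPM. Transferrin (TF), an iron carrier made by hepatocytes and by glia, was likewise 632 and 683 TPM in CON 3 and CON 4 and 81.1 to 214 TPM in the other 6. Of the other hepatocyte markers, ALB (4.55 and 3.64 TPM against 2.57 to 6.53), APOA1, FGB and CPS1 were not highest in both libraries. SERPINC1 was, at 0.3 and 0.09 TPM against 0. Of the 20 other selenoprotein genes found, 4 were also highest in these 2 libraries and the rest were not. The 4 were SELENOF (127 and 119 TPM against 90.6 to 112), GPX1 (89.9 and 93.8 against 70.1 to 88.2), MSRB1 (18.3 and 18.7 against 9.86 to 16.8) and SELENOM (35.4 and 28.8 against 18.2 to 26.7). How many of all genes were highest there was not counted. The part of cell make-up in the SELENOP level was not tested.

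Genes around the pair differed among themselves. Of up to 5 protein-coding genes on either side in the RefSeq table, 8 were found in the files. GHR, the growth hormone receptor and the nearest gene on the CCDC152 side, stood at 252, 233, 223 and 322 TPM in liver CON and at 48.6, 33.9, 43.2 and 80.3 TPM in liver SA, and in tail fat it was highest in CON 2 (362 TPM) but not in SA 1 (92.1 against 35.9 to 126 TPM in the other 6). HMGCS1, the cytosolic HMG-CoA synthase of cholesterol synthesis, ranged from 50.4 to 106 TPM with the CON diet and from 7.06 to 26.9 TPM with the SA diet in liver, and in tail fat it was highest in CON 2 and SA 1 (34.8 and 22.0 TPM against 0.91 to 11.5 TPM in the other 6). OXCT1, an enzyme of ketone body use, was at 1.96 to 4.51 TPM in liver with the CON diet and 0.50 to 0.60 TPM with the SA diet, and in tail fat it too was highest in CON 2 and SA 1 (135 and 54.5 TPM against 11.1 to 27.7 TPM). The zinc finger gene ZNF131 in liver was at 4.05 to 5.80 TPM in the CON group and 4.17 to 5.69 TPM in the SA group, and FBXO4 at 1.14 to 1.85 and 0.57 to 2.05 TPM. NIM1K, CCL28 and PLCXD3 did not exceed 0.53 TPM in any liver or tail fat library. None of the 8 was near 0 in all liver CON libraries and above 10 TPM in any liver SA library.

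CCDC152 was picked by its pattern between libraries, so the number of rows that share it is a description. Rows at or below 0.1 TPM in every liver CON library and at or above 100 TPM in every liver SA library numbered 4, namely CCDC152 and 3 rows for 5S ribosomal RNA that hold identical values. With 10 TPM in place of 100 they numbered 5. RCN3 and FITM1, given below, also went from 0 in every liver CON library to lower levels in every liver SA library. No row showed the opposite. Among 2808 pairs of protein-coding neighbours that overlap or lie at most 1000 bases apart, 1438 had both partners at a mean of 1 TPM or more in liver. The partner ratio did not overlap between the liver diets in 623 of these (43.3%), and in 68 (4.73%) the partners went in opposite directions without overlap. SELENOP and CCDC152 had the largest difference, with a change of −12.28 in the log2 ratio, as the way they were picked would lead to.

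The next pairs by size of that difference were LONP1 with RPL36 (−7.69), FCGRT with RCN3 (−6.66), CCDC191 with QTRT2 (5.25) and FITM1 with DCAF11 (5.11). RCN3, a calcium-binding protein of the secretory pathway, was 0 in every control liver and 9.77 to 32.2 TPM in the SA livers, while FCGRT, the neonatal Fc receptor, went from 213 to 274 TPM down to 29.1 to 51.9 TPM. FITM1, a lipid droplet protein, was 0 in liver CON and 1.93 to 17.0 TPM in liver SA. In tail fat it was 0 in CON 2 and SA 1 and 1.25 to 2.92 TPM in the other 6 libraries, the same libraries that held CCDC152. RCN3 was 0 in CON 2, 5.23 TPM in SA 1 and 7.16 to 19.5 TPM in the others. Whether reads were assigned by strand is not given in the sources used here, so transcripts of CCDC152 and reads of its neighbour counted under its name cannot be told apart, and the same holds for these pairs.

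The genes most like each of the pair were ranked by Pearson's r of log2(TPM + 1) over the 16 liver and tail fat libraries, among 10273 named genes. These libraries share diet group, tissue and mitochondrial share, so r describes the libraries as much as the genes. SELENOP had its highest values with NUDT19, SORD, ALDH6A1, SEC23A and RHOU (r = 0.97 each), among them SORD, sorbitol dehydrogenase, and ALDH6A1, a mitochondrial enzyme of valine breakdown. SORD ranged over 342 to 564 TPM in control liver, 59.9 to 168 TPM in liver SA, 148 and 136 TPM in tail fat CON 2 and SA 1, and 21.6 to 57.0 TPM in the other 6 tail fat libraries. CCDC152 was most like FAM174C (0.95), TTK (0.94), CNTD1 (0.93) and the mitochondrially encoded ATP6 (0.92) and COX3 (0.90). CNTD1 was at 0 to 0.07 TPM in liver CON, 3.78 to 6.05 TPM in liver SA, 0.06 and 0 TPM in tail fat CON 2 and SA 1, and 3.02 to 8.35 TPM in the other 6. Between SELENOP and CCDC152 themselves r was −0.73.

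The make-up of the selenoprotein transcripts differed between tissues and in liver between diets. Removing mitochondrial rows and rescaling a library leaves these shares as they are. Libraries of unlike mitochondrial share, as those of the liver diets, may still differ in make-up, and the part of that share was not tested. Summed over the 21 selenoprotein genes found, SELENOP held 75.4 ± 2.82% of TPM in liver CON and 35.6 ± 8.87% in liver SA. It held 45.5 ± 5.29% in pituitary-labelled CON, 36.3 ± 15.3% in hypothalamus-labelled CON and 9.14 ± 11.5% in tail fat CON (SD, n = 4 each). In tail fat GPX4 was the main selenoprotein transcript by mean, at 51.6 ± 21.0% in CON and 62.8 ± 14.7% in SA. SELENOP held 26.4 and 12.3% in tail fat CON 2 and SA 1, which had the lowest mitochondrial share, and 3.27 to 4.96% in the other 6. In CON 2 it exceeded GPX4 (23.2%). By mean share, SELENOW and GPX4 came next after SELENOP in both brain-labelled tissues, with 21.4 ± 4.46% and 17.4 ± 5.84% in hypothalamus-labelled CON. Single libraries of hypothalamus-labelled tissue had SELENOW above SELENOP, namely CON 2 (25.8 and 22.6%), SA 1 (28.3 and 21.3%) and SA 4 (23.7 and 23.6%).

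**Figure D2:**
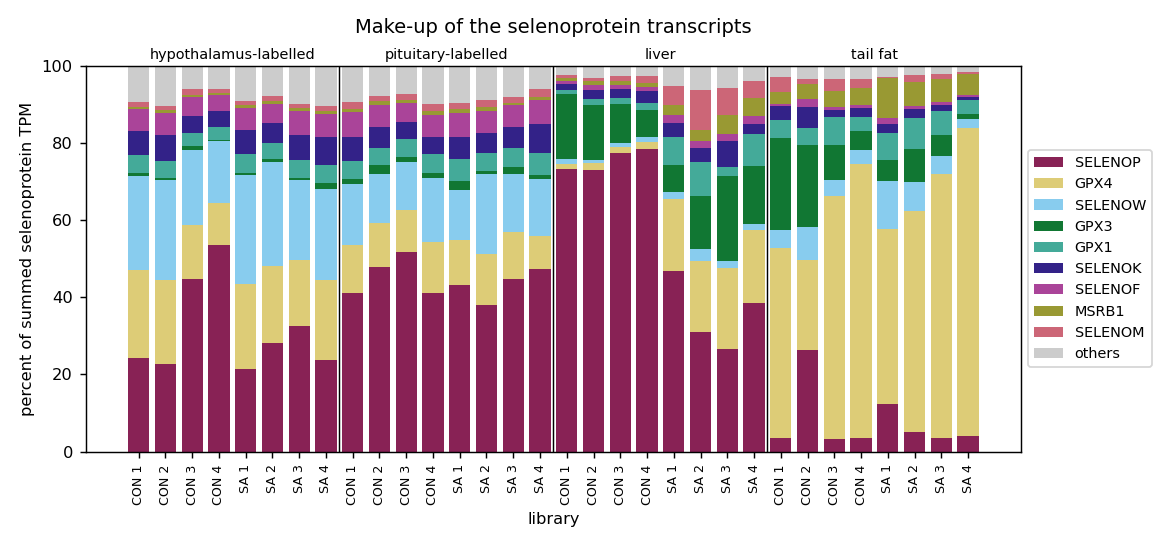
Stacked bars give the percent of the summed TPM of 21 selenoprotein genes held by each gene in each of the 32 libraries. SELENOP fills 72.9 to 78.4% of the liver CON bars and 26.5 to 46.7% of the liver SA bars, and GPX4 fills 23.2 to 79.8% of the tail fat bars.

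Leaving SELENOP out, the 20 other selenoprotein genes were also divided differently in liver. GPX3 held 48.3 ± 12.7% of their TPM in CON and 21.9 ± 7.02% in SA, ranges of 33.3 to 63.3% and 13.3 to 29.9% that did not overlap. GPX4 held 6.93 ± 1.17% in CON and 30.3 ± 3.72% in SA (SD, n = 4 each), again without overlap. SELENOK (9.68 ± 3.35% and 6.41 ± 2.14%) and MSRB1 (4.22 ± 1.01% and 5.76 ± 1.63%), a methionine sulfoxide reductase, overlapped between the diets. These shares are a description with no test.

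GPX3 and GPX4 each differed between tissues in control sheep. GPX3 averaged 826 ± 414 TPM in liver, 399 ± 330 in tail fat, 39.9 ± 13.6 in pituitary-labelled and 16.4 ± 6.39 in hypothalamus-labelled tissue (SD, n = 4 each). It was higher in liver than in hypothalamus-labelled tissue by 5.48 ± 0.54 on the log2(TPM + 1) scale (SE, limma, adjusted p = 7.25e-08), and lower in tail fat than in liver by a log2 change of −1.37 ± 0.54 (adjusted p = 0.0492), a call that was lost under 3 of 5 other settings and without liver CON 1, 2 or 3 or tail fat CON 3 or 4 (−0.95 to −1.47, lowest adjusted p = 0.0663). GPX4 had another order, with 1172 ± 425 TPM in tail fat, 360 ± 25.9 in hypothalamus-labelled, 301 (288 to 324) in pituitary-labelled tissue and 109 ± 13.9 in liver. Tail fat exceeded liver by 3.35 ± 0.23 (log2, SE, limma, adjusted p = 1.40e-09), and the hypothalamus- and pituitary-labelled groups did not differ beyond their spread (−0.25 ± 0.23, adjusted p = 0.605). GPX1 was the most even, at 82.8 ± 11.0, 117 ± 7.85, 94.5 ± 6.27 and 118 ± 35.0 TPM in hypothalamus-labelled, pituitary-labelled, liver and tail fat, and passed the threshold of 0.05 in none of the 6 tissue comparisons (lowest adjusted p = 0.0655). It did pass in tail fat against hypothalamus-labelled tissue without tail fat CON 3 (0.54) or CON 4 (0.59), and in 3 of the 6 with mitochondrial and ribosomal RNA rows removed, with tail fat above hypothalamus-labelled tissue by 0.61 and above liver by 1.01, and liver below pituitary-labelled tissue by a log2 change of −0.72.

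SELENOT, SELENOF and SELENOW had their highest control means in the brain-labelled tissues, and SELENOK did not. SELENOT was at 47.7 ± 6.23 TPM in pituitary-labelled, 44.4 ± 5.79 in hypothalamus-labelled tissue, 19.4 ± 2.80 in liver and 7.88 ± 7.57 in tail fat, and each step after the first passed (liver below hypothalamus-labelled by a log2 change of −1.16 ± 0.38, adjusted p = 0.0126, tail fat below liver by −1.53 ± 0.38, adjusted p = 0.00328, limma). SELENOF followed the same order, from 144 ± 10.9 TPM in pituitary-labelled tissue to 29.4 ± 28.3 in tail fat, and liver and hypothalamus-labelled tissue did not differ beyond their spread (−0.71 ± 0.39, adjusted p = 0.120). SELENOW was at 456 ± 60.0 TPM in hypothalamus-labelled, 357 ± 29.7 in pituitary-labelled tissue, 144 ± 116 in tail fat and 71.0 ± 11.6 in liver. Tail fat and liver did not differ for it beyond their spread on the deposited scale (0.72 ± 0.36, adjusted p = 0.116), while tail fat was higher without tail fat CON 3 (1.06) and with mitochondrial and ribosomal RNA rows removed (1.46). SELENOK, at 148 ± 20.8 TPM in liver, 128 ± 19.4 in pituitary-labelled, 114 ± 13.0 in hypothalamus-labelled tissue and 92.9 ± 76.7 in tail fat, passed in no comparison (lowest adjusted p = 0.0539). Without tail fat CON 2, the highest library at 202 TPM, SELENOK was lower in tail fat than in hypothalamus-labelled tissue, pituitary-labelled tissue and liver by log2 changes of −1.15, −1.31 and −1.51 (adjusted p = 0.00169, 5.19e-04 and 2.62e-04, limma).

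Counted over the 7 genes, 0 passed between pituitary- and hypothalamus-labelled tissue, where 13.1% of all 15929 genes tested passed and 3597 had an unadjusted p under 0.05. In liver against hypothalamus-labelled tissue 4 of 7 passed, beside 68.2% of all genes, and in tail fat against hypothalamus-labelled tissue 5 of 7, beside 67.4%. Liver against pituitary-labelled tissue gave 5 of 7, beside 73.1%, tail fat against pituitary-labelled tissue 5 of 7, beside 71.4%, and tail fat against liver 4 of 7, beside 44.1%. These shares are near the background, so the counts say little about selenoproteins as a group. The comparisons share control groups and are not independent.

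**Figure D3:**
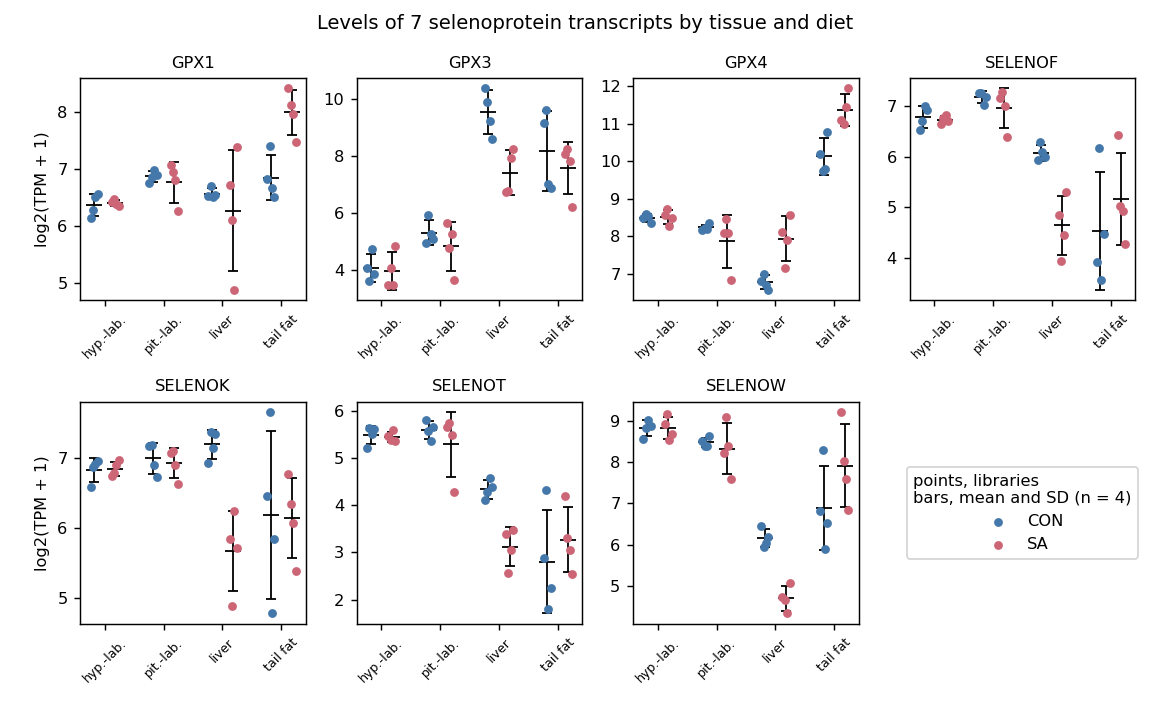
Points give log2(TPM + 1) of 7 selenoprotein genes in each library by tissue (hypothalamus-labelled, pituitary-labelled, liver and tail fat), blue for CON and red for SA, with the mean and SD of 4 libraries as bars. The y axes differ and do not start at 0. GPX4 is the 1 gene whose liver SA points all lie above liver CON, and GPX4 and GPX1 the 2 whose tail fat SA points all lie above tail fat CON.

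In liver, 6 of the 7 selenoproteins passed between the diets on the deposited scale, 1 higher and 5 lower in SA, but this count stood against 64.3% of all 11582 genes tested (5.21% higher and 59.1% lower) and against a median change of −0.83 over all genes. GPX4 was the gene that rose. It stood at 112, 127, 104 and 94.4 TPM in CON and at 277, 142, 237 and 382 TPM in SA. Every SA library was above every CON library, as for 4.07% of all genes. The log2 change was 1.16 ± 0.33 (SE, limma, adjusted p = 0.0115), and it was 2.14 under quantile normalization (adjusted p = 1.64e-04) and 2.24 with mitochondrial and ribosomal RNA rows removed (adjusted p = 1.88e-04).

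GPX3 fell in liver on the deposited scale. It stood at 1333, 969, 608 and 392 TPM in CON and at 105, 107, 247 and 303 TPM in SA, with no overlap, and 54.2% of all genes tested were lower in SA without overlap. The log2 change was −2.12 ± 0.50 (SE, limma, adjusted p = 0.00427), and it missed the threshold under quantile normalization (−1.15, adjusted p = 0.0598) and with mitochondrial and ribosomal RNA rows removed (−1.05, adjusted p = 0.103). Its spread within control liver was itself 392 to 1333 TPM, the widest of the 7 genes there. GPX1 showed no shift beyond its spread, with 91.3, 104, 90.1 and 92.9 TPM in CON and 104, 68.2, 28.5 and 166 TPM in SA (log2 change −0.30 ± 0.47, adjusted p = 0.592, and 0.77 with the opposite sign under both other scalings).

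The remaining 4 genes fell together in liver by amounts close to each other on the deposited scale. SELENOW went from 86.8, 60.0, 65.0 and 72.2 TPM in CON to 25.3, 24.1, 19.1 and 32.5 TPM in SA (−1.47 ± 0.24, adjusted p = 6.47e-04, limma). SELENOK went from 121, 165, 141 and 163 TPM to 56.2, 28.3, 74.5 and 51.6 TPM (−1.54 ± 0.32, adjusted p = 0.00229, limma). SELENOF (59.7 to 76.9 TPM in CON, 14.5 to 38.6 in SA) and SELENOT (16.3 to 23.0 and 4.95 to 10.1 TPM) changed by −1.43 ± 0.30 and −1.21 ± 0.24. In all 4 the diets did not overlap, as for the 54.2% of all genes that were lower in SA without overlap. With mitochondrial and ribosomal RNA rows removed, none of the 4 passed, and their changes lay between −0.23 and −0.47 beside a median of 0.00 over all genes.

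**Figure D4:**
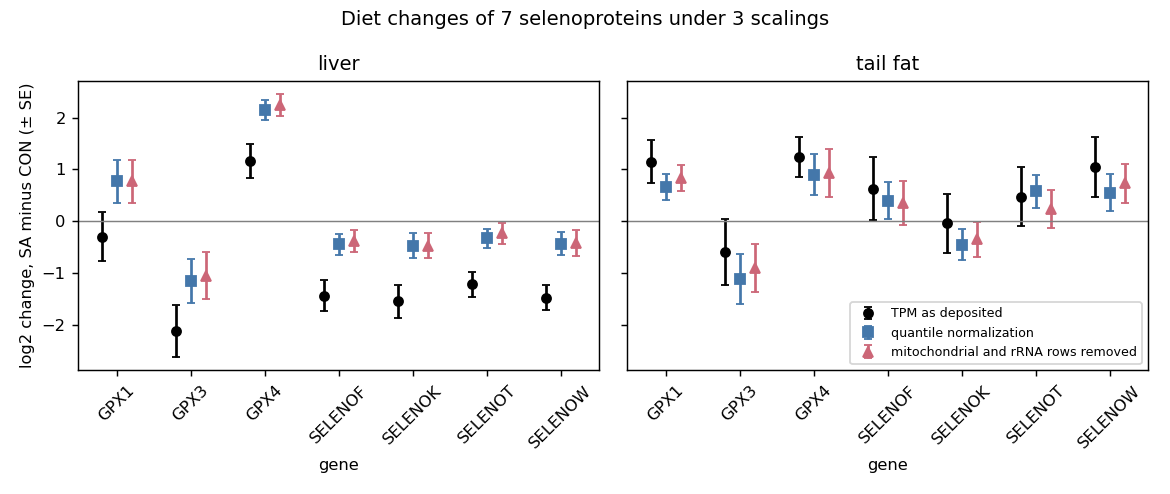
Points give the log2 change, SA minus CON, of 7 selenoproteins in liver (left) and tail fat (right) with the SE from limma, on TPM as deposited (circles), after quantile normalization (squares) and with mitochondrial and ribosomal RNA rows removed (triangles). In liver GPX4 lies above 0 on every scale, from 1.16 to 2.24, and the 5 genes that fell lie nearer 0 on the other scales.

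The wider selenoprotein and selenocysteine genes moved in both directions in liver. Of 16 other selenoproteins listed, 13 were found and 10 tested. SELENOO, a mitochondrial enzyme that transfers AMP to proteins, rose from 5.20 to 7.59 TPM in CON to 12.2 to 19.7 TPM in SA (log2 change 1.19, adjusted p = 9.47e-04, limma). SEPHS2, the selenoprotein that makes selenophosphate for selenocysteine synthesis, went from 107, 145, 76.8 and 50.8 TPM down to 3.94, 6.83, 14.0 and 8.98 TPM (log2 change −3.35, adjusted p = 1.34e-04, limma). Thioredoxin reductase TXNRD1 (−1.34), SELENOI (−1.08) and SELENON (−1.05) were the other members that fell, and the median change of the list was −0.41 beside −0.83 for all genes. Of the 10 tested, 1 was higher and 4 were lower, beside 5.21% higher and 59.1% lower of all genes. With mitochondrial and ribosomal RNA rows removed SELENOO (2.26), TXNRD2 (1.34) and SELENOM (1.37) passed as higher and SEPHS2 alone (−2.39) as lower, so the calls for SELENOO and SEPHS2 did not depend on the scaling. With these rows removed 1999 of 12811 genes were higher and 1767 lower.

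Of 12 genes for selenocysteine synthesis and insertion, 9 were tested in liver, of which 2 rose and 6 fell, beside 5.21% higher and 59.1% lower of all genes. Their median change was −0.90, beside −0.83. Those that rose were SECISBP2L (0.70, adjusted p = 0.0316, limma), a relative of the protein that binds the selenocysteine insertion hairpin, and RPL30 (2.87, adjusted p = 0.00459), a ribosomal protein that also binds it. RPL30 belongs to a family with many near-identical copies in the genome, so its value is uncertain. Those that fell included SARS1 (−1.96), which charges the selenocysteine transfer RNA with serine, SECISBP2 (−1.54), the hairpin-binding protein itself, and SEPHS1, a relative of SEPHS2. With mitochondrial and ribosomal RNA rows removed, 2 were higher and SARS1 alone was lower, where 1999 of 12811 genes were higher and 1767 lower. Under quantile normalization 2 were higher, and SARS1 and ELAVL1 were lower (adjusted p = 0.0194 and 0.0347, limma). On that scale 1886 of 11582 genes were higher and 2440 lower.

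Among 4 tested genes for selenium uptake and handling, 3 fell in liver, beside 59.1% of all genes. They were also lower on both other scales, where 2440 of 11582 genes (quantile normalization) and 1767 of 12811 (rows removed) were. LRP1, a receptor of the low-density lipoprotein receptor family, went from 55.8, 34.7, 35.3 and 51.5 TPM in CON to 5.21, 4.33, 7.66 and 6.83 TPM in SA (log2 change −2.69, adjusted p = 5.26e-05, limma). SELENBP1, a selenium-binding enzyme that oxidises methanethiol, went from 135 to 189 TPM to 13.8 to 37.6 TPM (−2.57), and CTH, which cleaves cystathionine and selenocystathionine, changed by −2.50. Selenocysteine lyase SCLY did not differ beyond its spread (0.02, adjusted p = 0.943), though it was higher by 0.91 under quantile normalization (adjusted p = 0.0123) and by 1.04 with mitochondrial and ribosomal RNA rows removed (adjusted p = 0.0252). Of 3 glutathione peroxidases without selenocysteine, GPX7 (−0.96) and GPX8 (−1.04) were found and fell, neither of them on the other scales.

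Of the 4 transcription regulators known to act on the SELENOP gene in liver cells, FOXO1 (−2.39), FOXO3 (−1.47) and HNF4A (−1.30) fell and PPARGC1A changed by −0.18 ± 0.59 (adjusted p = 0.805, limma). These 3 of 4 stood beside 59.1% of all genes lower, and the median change of the 4 was −1.39 beside −0.83 for all genes. FOXO1 also passed on both other scales (−1.69 and −1.88), FOXO3 under quantile normalization (−0.69) but not with the mitochondrial and ribosomal RNA rows removed, and HNF4A on neither. All these liver changes go with the higher mitochondrial share and the lower hepatocyte marker sum of the SA libraries given above. The liver diets also differed without overlap in endothelial markers (44.6 to 58.0 TPM summed in CON, 4.94 to 11.2 in SA), leukocyte markers (86.2 to 135 and 13.2 to 41.5 TPM) and the share of ribosomal RNA rows (0.23 to 0.78% and 1.11 to 5.98% of TPM). The part of each in the liver changes was not tested.

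In tail fat 0 of the 7 selenoproteins passed, where 0.697% of 11185 genes passed and 1596 had an unadjusted p under 0.05 (limma). GPX4 stood at 1180, 855, 883 and 1771 TPM in CON and at 2211, 2023, 2791 and 3930 TPM in SA, and GPX1 at 113, 169, 101 and 90.2 TPM in CON and at 342, 280, 251 and 177 TPM in SA. In both genes every SA library was above every CON library, as in 4.63% of all genes. The log2 changes were 1.24 ± 0.38 for GPX4 (adjusted p = 0.153) and 1.15 ± 0.41 for GPX1 (adjusted p = 0.224, limma). Without CON 2 and SA 1 they were 1.20 (adjusted p = 0.0728) and 1.19 (adjusted p = 0.0839). Under quantile normalization they were 0.90 (adjusted p = 0.200) and 0.66 (adjusted p = 0.152). With mitochondrial and ribosomal RNA rows removed they were 0.93 (adjusted p = 0.210) and 0.84 (adjusted p = 0.0584). GAPDH, the housekeeping gene found, was also higher in SA, at 757 to 2207 TPM against 268 to 582 TPM in CON.

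Of the 5 other genes in tail fat, SELENOF, SELENOT, SELENOK and SELENOW were highest in CON 2 and SA 1. These libraries were set apart by SELENOP and CCDC152, and the number of all genes highest in them was not counted. The count therefore says nothing about selenoproteins as a group. SELENOF was at 71.3 TPM in CON 2 and 85.2 TPM in SA 1 and at 10.8 to 31.6 TPM in the other 6 libraries. SELENOT (19.0 and 17.3 TPM against 2.46 to 8.93), SELENOK (202 and 108 against 26.4 to 87.0) and SELENOW (314 and 593 against 58.2 to 262) had the same 2 libraries on top. GPX3 did not, with 781 TPM in CON 2 and 267 TPM in SA 1 against 73.2 to 568 TPM in the other 6. These are the libraries with the highest SELENOP, the least CCDC152 and the lowest mitochondrial share, and GPX4 was not among the genes that followed them, with its lowest level, 855 TPM, in CON 2. Diet changes of these 4 genes lay between −0.04 and 1.04 (log2), with SE of 0.57 to 0.61 and adjusted p of 0.438 or above (limma).

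In the lists, 0 genes passed between the diets in tail fat on the deposited scale. The smallest adjusted p were those of MSRB1 (73.5, 148, 56.8 and 110 TPM in CON, 494, 216, 246 and 271 TPM in SA, log2 change 1.67, adjusted p = 0.0972, limma) and EEFSEC, the elongation factor that delivers selenocysteine to the ribosome (11.1 to 14.5 TPM in CON and 29.2 to 44.9 TPM in SA, 1.38, adjusted p = 0.138). With mitochondrial and ribosomal RNA rows removed both passed (MSRB1 1.36, adjusted p = 0.0271, and EEFSEC 1.10, adjusted p = 0.0496), where 174 of 12667 genes were higher and 1124 lower. SECISBP2L (−1.21, adjusted p = 0.0475) and FOXO3 (−1.70, adjusted p = 0.0152, limma) passed as lower on that scale. Under quantile normalization MSRB1 (adjusted p = 0.0620) and EEFSEC (adjusted p = 0.0694) missed the threshold. FOXO3 was lower there too (−1.19, adjusted p = 0.0460), where 186 of 11185 genes were higher and 229 lower.

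In hypothalamus-labelled tissue 0 of the 7 passed, as 0% of 14126 genes did (493 had an unadjusted p under 0.05, limma). GPX4 was at 325 to 385 TPM in CON and 310 to 425 TPM in SA, and SELENOW at 376 to 520 and 374 to 574 TPM. Changes of the 7 genes lay between −0.11 and 0.04 (log2), with SE of 0.11 to 0.16 except for GPX3 (0.35). In pituitary-labelled tissue 0 of 7 passed, as 0% of 14472 genes did (218 had an unadjusted p under 0.05). All 7 changes were below 0, from −0.48 to −0.07 with SE of 0.27 to 0.40, beside a median of −0.27 over all genes. SA 4, with its mitochondrial share of 68.8%, had the lowest SA value for each of the 7 genes, for example 114 TPM of GPX4 against 270 to 351 TPM in the other 3 SA libraries, and without it the changes of GPX1, SELENOK, SELENOT and SELENOW were 0.06, 0.03, 0.03 and 0.10.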

How the data were processed

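RNA-seq values of 32 sheep libraries were used as deposited. The tools named per the submitters' processing notes were RSEM, HISAT2 and fastp. Per the file headers the authors deposited TPM per gene. For genome build, annotation and strand setting, the sources used here give nothing, and 8 group means the authors deposited were not used. Library sums were 936939 to 987320 TPM, not 1000000.

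limma 3.58.1 (R 4.3.3, empirical Bayes with trend and robust settings) was fitted to log2(TPM + 1) for genes with 4 or more libraries at 1 TPM or above, so changes of low genes are understated. Each tissue was fitted alone for diet (8 libraries), and 16 CON libraries together for tissue. Benjamini-Hochberg adjustment covered all genes tested, with a threshold of 0.05, and SELENOP and CCDC152 were given no test. The fits were tested on simulated data. Alternatives were a pseudocount of 0.1, no filter, quantile normalization, removal of 37 mitochondrial and 49 ribosomal RNA rows with rescaling, a replicate block, and leaving out libraries.

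Genes, lists and markers were chosen with earlier results of these data known. All members, list genes of smallest p or highest level (up to 6 per list), neighbours and the 5 genes or pairs ranked first are named. Genes highest in hypothalamus CON 3 and CON 4, make-up shares and GAPDH were picked after values were seen. Strand is not in the gene table, so adjacent or overlapping pairs replaced opposite-strand pairs. A name on several rows was read from the row of highest mean. The results of 1 marker list are not reported here.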

Additional observations from a re-analysis of the deposited data

Results flagged for a closer look

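SELENOP in 3 libraries lay far from the other 3 of its group, by a gap large against the range of the group. In pituitary SA 4 it was 619 TPM, where the others were 994 to 1005 TPM. In tail fat CON 2 it was 972 TPM against 46.0 to 84.3 TPM, and in tail fat SA 1 it was 598 TPM against 141 to 197 TPM. For a gene not chosen by its values, chance flags about 1 in 20 groups in this way. SELENOP was chosen by its values, so that rate does not apply to it and the flags are a description. The same 3 libraries stood apart in mitochondrial share (68.8, 22.6 and 25.7%), and what sets SELENOP there was not tested.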

How the results depend on the processing

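Of 7 selenoproteins, 6 passed in liver on deposited TPM and 1, GPX4, under quantile normalization or with mitochondrial and ribosomal RNA rows removed. Between pituitary- and hypothalamus-labelled tissue 0 became 1 (SELENOW) under quantile normalization. The liver difference of SELENOP went from −3.47 to −2.64 (quantile) and −2.39 (rows removed), and that of CCDC152 from 8.82 to 10.30 (rows removed).

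Signs turned under both of these scalings, given in that order, for pituitary diet changes of GPX1 (0.18, 0.12), SELENOF (0.07, 0.00), SELENOK (0.22, 0.16) and SELENOW (0.14, 0.08), for liver GPX1 (0.77, 0.77), for pituitary minus hypothalamus SELENOK (−0.05, −0.03) and SELENOT (−0.09, −0.09), and for tail fat minus pituitary GPX1 (0.77, 0.30). With rows removed alone they turned for liver minus hypothalamus GPX1 (−0.41) and SELENOK (−0.24) and liver minus pituitary SELENOK (−0.21), and under quantile normalization alone for tail fat minus pituitary SELENOK (0.02). The rows filling more of SA liver libraries lower the share left to other genes. Beyond that the cause was not tested.

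Leaving out 1 library at a time, the liver count stayed at 6 and the other diet counts at 0. Tissue counts were 5 to 6 for tail fat against either brain-labelled tissue and 3 to 5 against liver, and kept their value elsewhere. Ranges that crossed 0 were, in hypothalamus, −0.04 to 0.10 (GPX1), −0.40 to 0.12 (GPX3), −0.04 to 0.11 (GPX4), −0.15 to 0.02 (SELENOF), −0.07 to 0.05 (SELENOK), −0.13 to 0.01 (SELENOT) and −0.10 to 0.10 (SELENOW). In pituitary they were −0.21 to 0.06 (GPX1), −0.16 to 0.03 (SELENOK), −0.46 to 0.03 (SELENOT) and −0.41 to 0.10 (SELENOW). They were −0.67 to 0.16 for GPX1 in liver, −0.51 to 0.45 for SELENOK in tail fat (0.24 without CON 2 and SA 1 together) and −0.21 to 0.09 for GPX1 in tail fat minus pituitary.

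Deviations of same-numbered libraries from their group means had correlations of −0.40 to 0.38. These cannot tell whether a number marks the same sheep, since tissues of the same sheep need not deviate together. With the replicate block the liver count was 6 and that of tail fat against liver 5 in place of 4, and the block changed none of the other counts. TPM hold no depth, so what depth limits cannot be said.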
